A study of Mus musculus with 4 samples.

Results

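Parp1, 5 further PARP genes and Dtx3l, 7 of the 27179 genes in the deposited count table, were followed in cultured mouse aortic endothelial cells. They were picked by symbol from the Entrez identifiers: Parp9, Parp10, Parp11, Parp12 and Parp14, which belong to the mono-ADP-ribosylating branch of the PARP family, Dtx3l, which encodes the partner of PARP9, and Parp1, the constitutive DNA-damage enzyme of the family. Each member had a row and each passed the filter on low counts.

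The cells were of the mAEC line, a stand-in for the lining of the aorta, and total RNA was sequenced from 2 groups of 2 libraries that the series calls biological replicates. Control cells were kept in normal medium, and conditioned medium cells received culture supernatant of macrophages positive for TNFα and CD68. No source used here gives the length of exposure, the amount or content of the supernatant or the origin of the macrophages. None lists a group given added interferon or the supernatant of another cell type. Whether the supernatant held interferon is not stated. The question was how these endothelial cells differ after meeting the macrophage supernatant.

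ADP-ribosylation is the transfer of ADP-ribose from NAD onto proteins. PARP1 builds long chains at DNA breaks, whereas most of the other enzymes add single units, and several of their genes are induced by interferon in many cell types, where they take part in antiviral defence and in tuning of cytokine signals. PARP9 has macrodomains, which bind ADP-ribose, and works in a complex with the ubiquitin ligase DTX3L. The genes of this pair stand head to head beside Parp14 on mouse chromosome 16.

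Library totals ran from 13815695 to 18005840 counts, and 3 counts equalled 0.167 to 0.217 CPM (counts scaled to a common library size). The control pair differed more than the conditioned medium pair, with SDs of the log2 ratio of 0.148 and 0.116 over 10662 well-counted genes. Those SDs include counting error. Chi-square per degree of freedom, near 1 for counting error alone, was 5.64 in the control pair and 1.58 in the conditioned medium pair. Of the endothelial markers, Cdh5 and Pecam1 were the most abundant. The 12 markers summed to 7054 and 7094 CPM in control and 7162 and 7090 in conditioned medium, most of it from those 2 genes. Vwf was low, at 2.30 and 3.49 CPM in control and 2.38 and 3.38 CPM in conditioned medium. Cldn5, a tight junction gene, had 1 count in the 4 libraries together. Within that sum markers moved both ways: Robo4 (log2 fold change -0.35, edgeR adjusted p = 7.28e-05), Kdr (-0.16) and Emcn (-0.13) fell, and Eng (0.32, edgeR adjusted p = 1.11e-04) and Egfl7 (0.21) rose. The 10 macrophage markers summed to 420 and 463 CPM in control and 425 and 427 in conditioned medium, nearly all from Cd68 and Mertk. Adgre1 and Mrc1 were at 0 in every library, and Csf1r, Ptprc, Itgam and Fcgr1 had at most 3 counts in any library. Cd14 and Lyz2 were low, at 4.26 to 7.14 CPM. Mertk fell (-0.21, edgeR adjusted p = 0.00379) and Cd68 was not called. Of the other marker lists, smooth muscle summed to 229 and 239 against 244 and 242 CPM, nearly all from Smtn. Acta2, Myh11 and Cnn1 had at most 10 counts in any library, and Tagln was at 1.37 to 1.63 CPM. The fibroblast list summed to 27.7 and 29.8 against 34.0 and 34.2 CPM, nearly all from Pdgfra, which was called higher (0.28). The epithelial list summed to 7.45 and 8.49 against 14.1 and 13.8 CPM. In the last, Krt19, a keratin, rose from 0.745 and 0.890 to 4.62 and 4.54 CPM (2.47, edgeR adjusted p = 3.85e-06), with Cdh1 at 0 in every library and Epcam at 1 count in all. Their part in the members' values was not tested. No source used here says how the cultures were batched, and a batch that went with the groups cannot be told apart from the treatment. In bulk RNA, fewer cells that express a gene and less RNA per cell cannot be told apart either.

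Of the 7 members, 5 fell in conditioned medium (Parp14, Parp9, Dtx3l, Parp12 and Parp1), 0 rose, and Parp10 and Parp11 did not pass the test. The falls ran from 1.11-fold in Parp1 to 1.52-fold in Parp14, and the median log2 fold change of the 7 was -0.29, against 0.00 for all genes tested. The test was edgeR's quasi-likelihood F test with Benjamini-Hochberg adjustment, and at an adjusted p under 0.05 it called 16.8% of the 13897 genes tested, 8.23% lower and 8.53% higher. The members were chosen with earlier results of these data known, so the count is a description of them. The groups did not overlap, with both conditioned medium libraries below both controls, in 5 members and in 28.8% of all genes tested. At an unadjusted p under 0.05, edgeR also had 5 members lower and 0 higher. DESeq2 had 4 lower and 0 higher, of which 2 were called after adjustment, Parp14 and Parp9. Across all genes DESeq2 called 904 after adjustment. The share of all genes under the unadjusted threshold was not taken. Counts at that threshold, here and for the lists below, therefore have no background to be judged against. Leaving out 1 library at a time gave 2 to 5 members lower, the lowest count being 2 without conditioned medium replicate 2 and the next 3 without conditioned medium replicate 1.

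**Figure D1:**
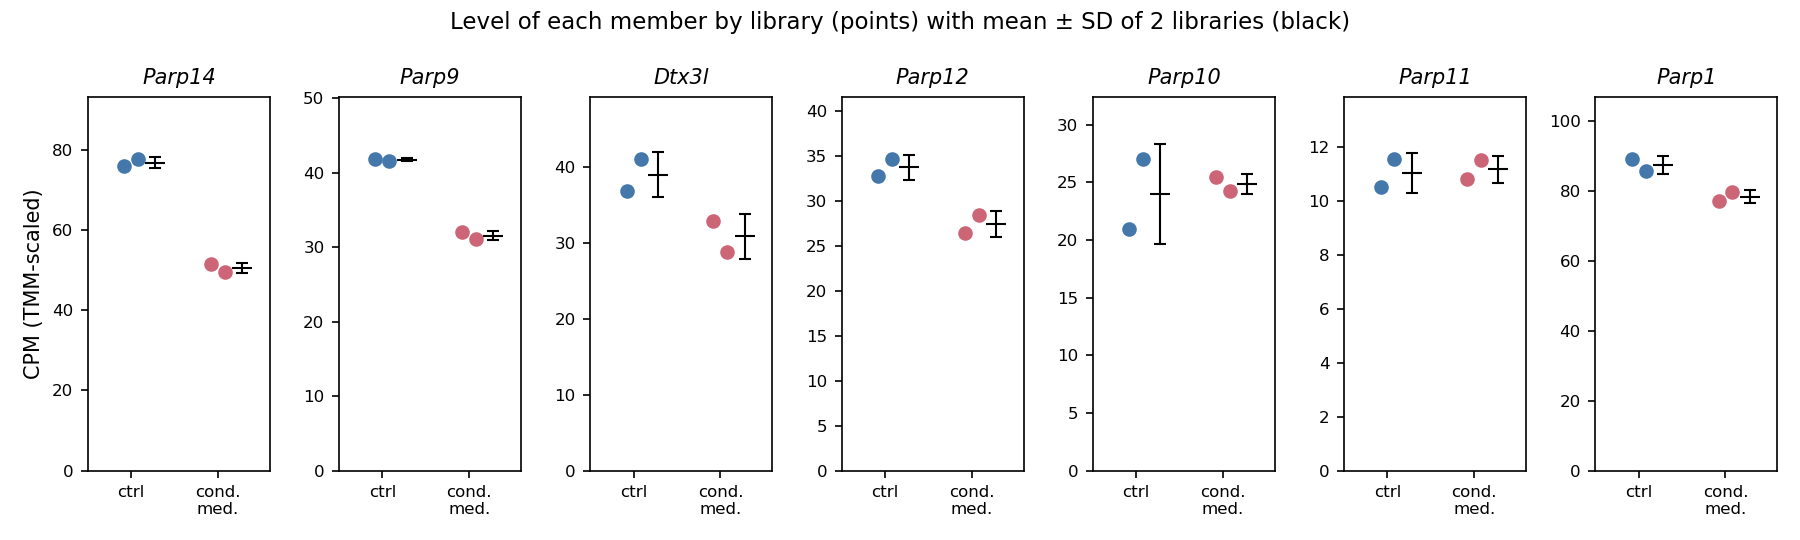
Level of each member in CPM scaled by TMM (vertical axis, from 0) in the control (ctrl) and conditioned medium (cond. med.) libraries. Points are single libraries and black bars the mean ± SD of 2 libraries; the conditioned medium points lie below both control points in Parp14, Parp9, Dtx3l, Parp12 and Parp1, and the points overlap in Parp10 and Parp11.

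Parp14 encodes the largest of these enzymes, a protein with macrodomains that is known as a cofactor of STAT6 in interleukin-4 signalling. It lies on the minus strand of chromosome 16, 35831892 to 35871518, in GRCm38. Its control libraries held 75.9 and 77.8 CPM and its conditioned medium libraries 51.4 and 49.7 CPM. Both treated libraries were well below both controls, and the gap was many times the difference within either pair. The log2 fold change was -0.61 ± 0.06 (SE; edgeR adjusted p = 3.37e-07), a 1.52-fold fall with a 95% interval of -0.73 to -0.49 on the log2 scale. Only 1.09% of the genes tested had a lower log2 fold change. The call was kept under all 13 alternatives, with values from -0.63 to -0.58.

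Parp9, the macrodomain partner of DTX3L, lies on the plus strand of chromosome 16, 35938470 to 35972621. It held 41.9 and 41.6 CPM in control against 32.0 and 31.2 CPM in conditioned medium. The controls agreed to within 1 CPM and both treated libraries were lower. Its log2 fold change was -0.40 ± 0.07 (edgeR adjusted p = 3.62e-04), with an interval of -0.55 to -0.26, and it too was called under all 13 alternatives, at -0.42 to -0.39.

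Dtx3l, which encodes the ubiquitin ligase of the complex, lies on the minus strand at 35926515 to 35939027 of chromosome 16. The control libraries held 36.9 and 41.1 CPM and the conditioned medium libraries 33.0 and 28.8 CPM. These groups did not overlap, but conditioned medium replicate 1 was closer to control replicate 1 than the controls were to each other. The log2 fold change was -0.34 ± 0.08 (edgeR adjusted p = 0.0054), with an interval of -0.51 to -0.17. The call was lost without conditioned medium replicate 2 (log2 fold change -0.24, adjusted p = 0.224) and in DESeq2 (adjusted p = 0.0816), within alternatives that began at 1.40e-05.

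The ratio of Dtx3l to Parp9 counts within a library does not depend on scaling. It was 0.882 and 0.989 in the controls and 1.03 and 0.925 in the treated libraries. The groups overlapped, so no shift of one partner against the other was seen beyond the spread. The genes share a head-to-head arrangement, and the RefSeq window around the start of Dtx3l, from 250 bases before it to 50 after it, is shown because transcripts of both begin in it. It covers chr16:35938978-35939277 of GRCm38.p6 and is written along the minus strand. Capitals mark the 17 bases between the start of Dtx3l at 35939027 and the first of 4 GENCODE M21 starts of Parp9 in the window, at 35939011.
Dtx3l: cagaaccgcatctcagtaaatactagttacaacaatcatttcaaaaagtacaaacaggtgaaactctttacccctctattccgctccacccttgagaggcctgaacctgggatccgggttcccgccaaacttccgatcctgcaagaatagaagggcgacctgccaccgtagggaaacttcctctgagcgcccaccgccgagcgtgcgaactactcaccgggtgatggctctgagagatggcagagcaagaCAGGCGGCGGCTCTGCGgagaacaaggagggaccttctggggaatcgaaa
Because the libraries do not mark strand, reads from this overlap carry no sign of which gene they came from. The shared exonic sequence came to 458 bases in GENCODE M21, 8% of the exonic length of Dtx3l and 9.40% of that of Parp9.

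The window was searched on both strands for the core of the interferon-stimulated response element, GAAANNGAAA, which interferon-regulated factor complexes bind, and for the gamma-activated site TTCNNNGAA, which STAT dimers bind. Neither was found in the letters of the Dtx3l window, nor in those of Parp1 and Parp12. Among all 32851 windows of the same length, 3.44% held the first and 8.3% the second. Windows were found for 4 of the 7 members (Parp1, Parp11, Parp12 and Dtx3l) in the RefSeq table. Parp9, Parp10 and Parp14 had none.

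Neighbours of the chromosome 16 group were compared as a local background. Upstream of Parp14 in coordinate order, Hspbap1 stood at 8.87 and 8.69 CPM in control and 8.01 and 9.92 CPM in conditioned medium, with overlapping groups (log2 fold change 0.04, interval -0.26 to 0.34). Slc49a4, a transporter-family gene further out, had a log2 fold change of 0.28 ± 0.09 and was called higher (edgeR adjusted p = 0.0368). Beyond Parp9, Kpna1, which encodes a nuclear import receptor, had 74.8 and 70.7 CPM against 72.9 and 68.3 CPM, also overlapping (log2 fold change -0.05, interval -0.17 to 0.07). Wdr5b was low, at a log2 fold change of -0.36 with a wide interval of -0.84 to 0.11, and it ran from -0.08 without conditioned medium replicate 1 to -0.80 without replicate 2. The 3 members were the genes called lower among the 7 tested ones of this stretch, against 8.23% of all genes tested. Wdr5b, at 2.60 to 4.81 CPM, was not called, but its interval holds the values of Dtx3l (-0.34) and Parp9 (-0.40). The difference between the members and these neighbours was not tested. Slc49a4 lost its call without control replicate 2 (adjusted p = 0.075), without conditioned medium replicates 1 and 2 (0.266 and 0.156), with no count filter (0.0566) and in DESeq2 (0.322), where 0.0242 was the lowest alternative.

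**Figure D2:**
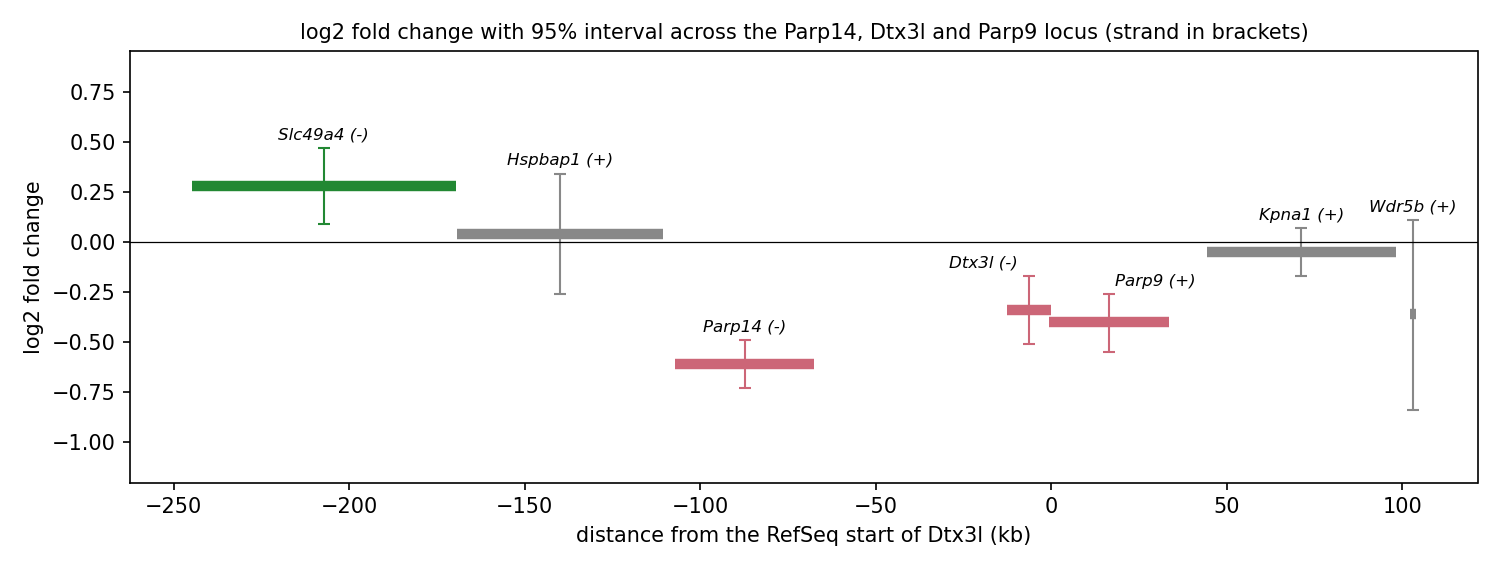
log2 fold change of conditioned medium over control (vertical axis) of the 7 tested genes along the chromosome 16 locus, by distance in kb from the RefSeq start of Dtx3l (horizontal axis). Thick bars span each gene, thin bars are 95% intervals, and red, green and grey mark genes called lower, called higher and not called; Parp14, Dtx3l and Parp9 are the red bars, at -0.61, -0.34 and -0.40.

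Parp12 encodes a zinc-finger PARP that interferon induces and that acts against several viruses. It lies on the minus strand of chromosome 6, 39086412 to 39118349. Its levels were 32.8 and 34.7 CPM in control and 26.4 and 28.5 CPM in conditioned medium, with no overlap. The log2 fold change was -0.29 ± 0.08 (edgeR adjusted p = 0.0126), and the interval ran from -0.46 to -0.13. Without conditioned medium replicate 1 it was -0.24 (adjusted p = 0.188) and without replicate 2 -0.35 (adjusted p = 0.0837), and neither these nor DESeq2 (0.173) called it, within alternatives that began at 0.00262.

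Parp10 encodes a mono-ADP-ribosyltransferase with ubiquitin-interaction motifs and lies on the minus strand of chromosome 15, 76232995 to 76243440. It held 20.9 and 27.0 CPM in control against 25.5 and 24.2 CPM in conditioned medium. Both treated libraries lay between the controls, whose spread was the widest of any member. The log2 fold change of 0.05 ± 0.10 was not called (edgeR adjusted p = 0.798), and the interval of -0.16 to 0.26 would hold a fall of 10.8% or a rise of 19.9%. Its sign depended on the control used: 0.24 without control replicate 2 and -0.13 without control replicate 1. GENCODE places 205 bases of exon shared with Plec, a much more abundant gene on the same strand, in Parp10 (4.80% of its exonic length). In the RefSeq coordinates Plec lies 1617 bases from Parp10, without overlap. No source used here says which annotation was counted or how reads there were counted.

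Parp11 encodes a mono-ADP-ribosyltransferase that is known to modify a regulator of the type I interferon receptor. It lies on the plus strand of chromosome 6, 127446830 to 127514233, and was the lowest member. Its values were 10.5 and 11.6 CPM in control and 10.8 and 11.5 CPM in conditioned medium, so the treated libraries lay within the control range. The log2 fold change was 0.02 ± 0.12 (edgeR adjusted p = 0.929), and the interval, -0.24 to 0.28, spans a fall of 15.2% to a rise of 21.7%. Its sign turned when control replicate 1 (-0.04) or conditioned medium replicate 2 (-0.03) was left out. Of the members with a RefSeq window, Parp11 was the one in which both motifs were found, in 1 of its 2 windows, which is shown for that contrast. The window covers chr6:127446590-127446889 of GRCm38.p6 on the plus strand. Capitals mark the interferon element, read from the other strand, running into the gamma-activated site. They begin 44 and 37 bases before the RefSeq start that the window was drawn around, which is not the gene coordinate given above.
Parp11: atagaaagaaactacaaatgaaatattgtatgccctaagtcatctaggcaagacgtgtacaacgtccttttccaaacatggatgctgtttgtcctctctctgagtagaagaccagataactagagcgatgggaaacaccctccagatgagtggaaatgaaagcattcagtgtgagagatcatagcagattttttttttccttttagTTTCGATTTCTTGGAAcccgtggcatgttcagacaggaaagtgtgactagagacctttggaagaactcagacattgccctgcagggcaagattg
A match of letters is a description and does not show that a factor binds there.

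Parp1, which senses DNA strand breaks, lies on the plus strand of chromosome 1, 180568891 to 180600999. It held 89.1 and 85.5 CPM in control and 77.1 and 79.5 CPM in conditioned medium, with no overlap. The log2 fold change was -0.16 ± 0.05, and its edgeR adjusted p of 0.0498 stood at the edge of the threshold. It lost the call in 10 of the 13 alternatives, among them RLE scaling (0.0501), DESeq2 (0.355), and the fits that left out control replicate 1 (-0.13, adjusted p = 0.156) or conditioned medium replicates 1 and 2 (-0.13 and -0.18, adjusted p = 0.34 and 0.209), in a range that began at 0.0155. Its log2 fold change stayed between -0.18 and -0.13.

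Set against Parp1 in the same library, Parp14, Parp9 and Parp12 were lower in conditioned medium. Parp14 had 0.853 and 0.910 counts per Parp1 count in the controls and 0.668 and 0.624 in conditioned medium, lower in both treated libraries. Parp9 had 0.470 and 0.486 against 0.415 and 0.392, and Parp12 0.368 and 0.406 against 0.343 and 0.358, both without overlap. Dtx3l overlapped, at 0.414 and 0.481 against 0.428 and 0.362. Parp10 did so too, at 0.235 and 0.316 against 0.331 and 0.305, and Parp11 was higher without overlap, at 0.118 and 0.135 against 0.140 and 0.145. Parp1 was itself lower in conditioned medium (log2 fold change -0.16), so it is not a fixed reference. The CPM of Parp11 overlapped between the groups (log2 fold change 0.02). With 2 libraries a group an exact permutation test of such a ratio cannot give a p below 0.333, so these are descriptions.

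**Figure D3:**
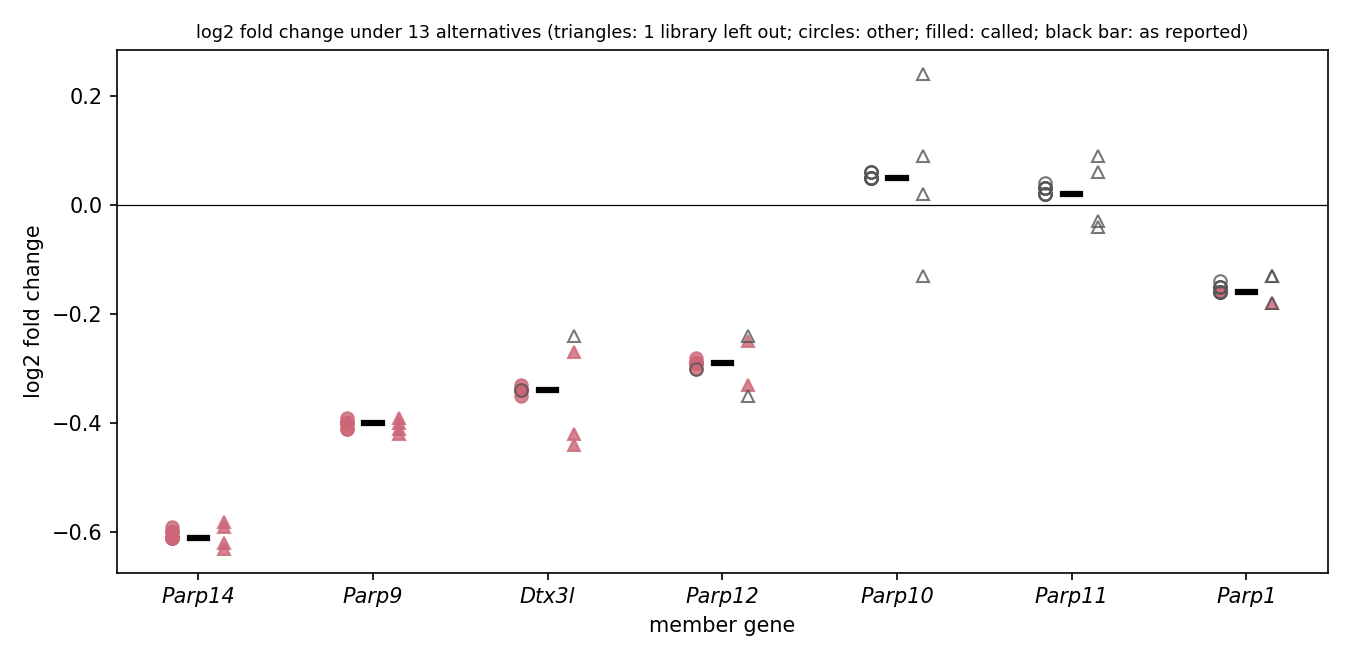
log2 fold change of conditioned medium over control (vertical axis) of each member under the 13 alternatives. Triangles leave out 1 library, circles change the scaling, filter, model or tool, filled symbols are called and the black bar is the reported value; Parp14 and Parp9 are filled throughout, between -0.63 and -0.58 and between -0.42 and -0.39, while Parp10 runs from -0.13 to 0.24.

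Levels can be compared between genes only per length, and here CPM were divided by kilobases of exon in GENCODE M21. In control, Parp1 was highest at 16.5 ± 0.470 CPM per kb (mean ± SD, n = 2). Parp9 (8.57 ± 0.0358), Parp12 (8.45 ± 0.339) and Parp14 (8.26 ± 0.144) followed, and neighbours among these did not separate by library. Dtx3l (6.82 ± 0.521), Parp10 (5.61 ± 1.01) and Parp11 (1.57 ± 0.108) came last. In conditioned medium, Parp1 was still highest at 14.8 ± 0.331 CPM per kb, and Parp12 (6.87 ± 0.368) and Parp9 (6.48 ± 0.118) were next. Parp14, at 5.43 ± 0.135, then stood below Parp10 at 5.81 ± 0.207 and overlapped Dtx3l at 5.40 ± 0.513. Parp11 remained lowest at 1.59 ± 0.0710. With lengths from transcripts paired with RefSeq records, Parp14 was again above Dtx3l and Parp10 in control (10.4 against 7.35 and 7.08 CPM per kb) and below Parp10 in conditioned medium (6.82 against 7.33). With those lengths Parp9 came before Parp12 in conditioned medium (9.01 and 8.78 against 8.17 and 8.82, overlapping), and Parp14 no longer overlapped Dtx3l (5.82).

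Of the 10 PARP family genes outside the members, edgeR called 0 lower and 1 higher, counts near the 8.23% and 8.53% of all genes tested, and their median log2 fold change was 0.00. The difference between these genes and the members was not tested. The groups did not overlap in 2 of the 10 with conditioned medium lower, against 28.8% of all genes. They did not overlap in 3 with it higher, against 3956 of the 13897 genes tested. At an unadjusted p under 0.05, edgeR also gave 0 lower and 1 higher, and DESeq2 gave 0 in both directions. Zc3hav1, which encodes the antiviral RNA-binding protein ZAP and belongs to the same interferon-induced branch, had 87.4 and 96.6 CPM in control and 84.4 and 87.9 CPM in conditioned medium, overlapping (log2 fold change -0.09 ± 0.06; edgeR adjusted p = 0.288). Tiparp, a mono-ADP-ribosyltransferase induced by the aryl hydrocarbon receptor, was at 0.11 ± 0.06 (edgeR adjusted p = 0.181). Parp6 was the one called, from 17.8 and 16.4 to 21.9 and 20.4 CPM (0.30 ± 0.10; edgeR adjusted p = 0.0396), and Parp16, of the endoplasmic reticulum, was at 0.25 ± 0.13 (0.2). The DNA-repair enzymes Parp2 and Parp3 were at -0.09 and -0.01, the tankyrases Tnks and Tnks2 at 0.01 and -0.06, the vault enzyme Parp4 at 0.01 and Parp8 at -0.10. Parp6 lost its call without control replicate 2 (0.24, adjusted p = 0.119), without conditioned medium replicates 1 and 2 (0.28 and 0.157), with no count filter (0.0595) and in DESeq2 (0.323), with 0.0171 the lowest. Without control replicate 1, Tiparp (0.19, adjusted p = 0.00962), Zc3hav1 (-0.16, 0.0376) and Parp16 (0.42, 0.0364) were called, and without control replicate 2, Tnks2 (-0.10, 0.0159), their alternatives reaching up to 0.667, 0.868, 0.682 and 0.771.

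Among the Deltex ubiquitin ligases, named for a Notch regulator of the fly, Dtx3l fell and Dtx2 rose. Dtx2 had 29.3 and 35.4 CPM in control and 45.7 and 42.5 CPM in conditioned medium, without overlap (log2 fold change 0.44 ± 0.08; edgeR adjusted p = 6.39e-04), and it was called under all 13 alternatives. Dtx3 (0.16 ± 0.09) and Dtx4 (0.50 ± 0.22, at 2.78 and 3.76 against 5.12 and 4.21 CPM) were not called (edgeR adjusted p = 0.207 and 0.13), though both were without control replicate 2 (0.33 and 0.73, adjusted p = 0.00131 and 0.0383, with alternatives up to 0.934 and 0.518). Dtx1 had 1 count in the 4 libraries together.

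**Figure D4:**
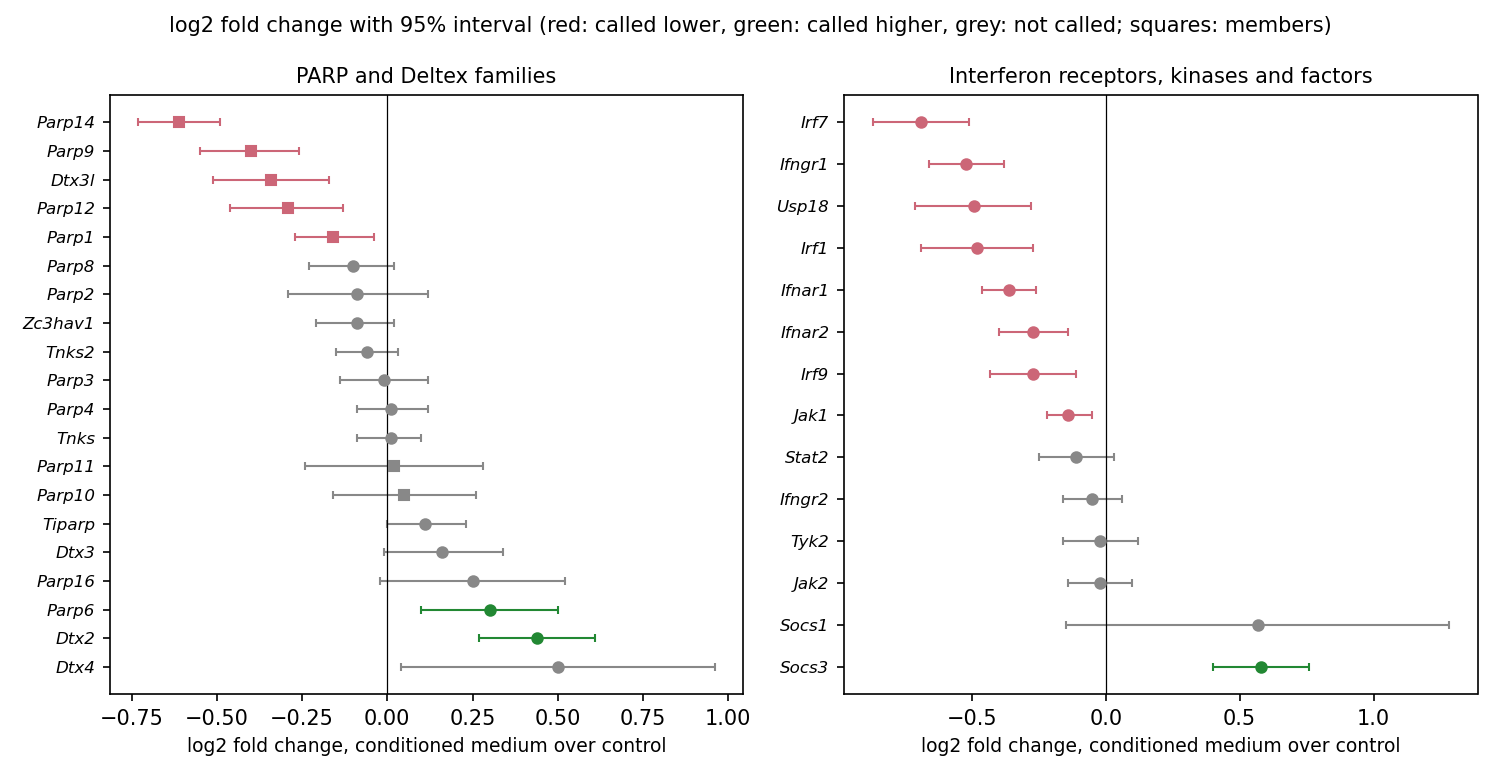
log2 fold change of conditioned medium over control with 95% intervals (horizontal axis) of the tested PARP and Deltex genes (left) and of 14 of the 15 interferon receptor, kinase and factor genes (right). Red, green and grey mark called lower, called higher and not called, and squares are the 7 members; Parp14 at -0.61 and Irf7 at -0.69 are the lowest in their panels.

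Interferon reaches these genes through receptors, JAK kinases, STAT proteins and interferon regulatory factors. Of 15 genes of that route, all tested, 9 fell and 1 rose, against 8.23% and 8.53% of all genes tested, with a median log2 fold change of -0.27. Irf7, an interferon-induced regulatory factor, fell from 35.1 and 41.6 to 24.2 and 23.3 CPM (-0.69 ± 0.09; edgeR adjusted p = 1.13e-05), and Ifngr1, a chain of the receptor for interferon gamma, from 49.6 and 49.9 to 33.8 and 35.6 CPM (-0.52 ± 0.07; edgeR adjusted p = 1.53e-05). Usp18, which removes ISG15 and restrains the type I receptor, was at -0.49 ± 0.10 (edgeR adjusted p = 0.00209). Socs3, a feedback inhibitor of cytokine receptors, was the one that rose, from 22.8 and 27.0 to 35.6 and 38.5 CPM (0.58 ± 0.09; edgeR adjusted p = 7.27e-05).

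Stat2 and Irf9, which act in type I interferon signalling, and the receptor chain Ifnar1 were added to the description after their values were seen. Irf9 was at -0.27 ± 0.08 and was called (edgeR adjusted p = 0.017), and Stat2 at -0.11 ± 0.07 was not (0.283). Ifnar1 fell from 167 and 160 to 132 and 124 CPM (-0.36 ± 0.05; edgeR adjusted p = 2.73e-05). The count of falls was 3 without conditioned medium replicate 1, 5 without replicate 2 and 5 in DESeq2. Without those 2 libraries in turn, Usp18 (adjusted p = 0.0505 and 0.0625) and Irf9 (0.175 and 0.146) lost their calls. Irf9 also lost its call without control replicate 2 (-0.20, adjusted p = 0.0928) and in DESeq2 (0.204), while Stat2 was called without control replicate 1 (-0.22, adjusted p = 0.00313). Their lowest alternatives were 1.32e-05 for Usp18 and 9.85e-04 for Irf9, and the highest for Stat2 was 0.901.

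ADP-ribose is removed by hydrolases and read by macrodomain proteins. Of 14 such genes 12 were tested, and edgeR called 0 in either direction, with a median log2 fold change of 0.00. At an unadjusted p under 0.05, edgeR and limma-voom each had 1 lower and 0 higher, and DESeq2 had 0. The smallest p belonged to Nudt5, an ADP-ribose pyrophosphatase, at 27.3 and 26.4 CPM in control and 23.7 and 22.7 CPM in conditioned medium (-0.21 ± 0.08; edgeR adjusted p = 0.0938). Of 15 partners of PARP1 and base excision repair genes, 1 fell and 0 rose, with a median of -0.12, and the count lower is near the 8.23% of all genes tested. This was Neil3, a DNA glycosylase, at -0.40 ± 0.11 (edgeR adjusted p = 0.0178), which lost its call without conditioned medium replicate 1 (-0.25, adjusted p = 0.293) and in DESeq2 (0.154), with 0.00121 the lowest alternative. At an unadjusted p under 0.05, edgeR had 3 of these genes lower and 1 higher, and DESeq2 1 lower and 0 higher. Their groups did not overlap in 9 of the 15 with conditioned medium lower, against 28.8% of all genes tested. They did not overlap in 1 with it higher, against 3956 of the 13897 genes tested.

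NAD is the substrate of every active PARP. Of 18 genes that make or use it, 16 were tested, 4 rose and 1 fell, against 8.53% and 8.23% of all genes tested, with a median log2 fold change of -0.02. Nampt, the rate-limiting enzyme of NAD salvage, fell from 155.2 and 154.8 to 134.3 and 138.1 CPM (-0.19 ± 0.05; edgeR adjusted p = 0.00797). Sirt2, an NAD-dependent deacetylase (0.33 ± 0.07; edgeR adjusted p = 0.00147), Bst1, an ecto-enzyme that splits NAD (0.23 ± 0.04; 6.56e-04), and Nmnat2, which makes NAD from its mononucleotide (0.18 ± 0.05; 0.0274), rose. Without conditioned medium replicate 1, Nampt (adjusted p = 0.183), Sirt2 (0.0629) and Nmnat2 (0.211) lost their calls, and without replicate 2, Nampt (0.117), Bst1 (0.106) and Nmnat2 (0.227). Nmnat2 also did so without control replicate 2 (0.11, adjusted p = 0.165) and with no count filter (0.0569), and Nampt and Nmnat2 in DESeq2 (0.0854 and 0.232). The lowest alternatives were 0.00152 for Nampt, 6.16e-05 for Sirt2, 7.13e-10 for Bst1 and 3.45e-04 for Nmnat2. The rises numbered 1 without either conditioned medium library and 2 in DESeq2.

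Genes of like pattern were sought for Parp14, Parp9 and Dtx3l by the root mean square difference of log2 CPM, each gene centred over the 4 libraries. Among 10678 genes with a symbol and a mean of at least 5 CPM, nearest to Parp14 were Gulp1, an engulfment adaptor (difference 0.0187), 9930111J21Rik2 (0.0232) and Ifi204, an interferon-inducible gene of the p200 family (0.0235). Ifi204 held 199.1 and 213.6 CPM in control and 137.7 and 133.1 CPM in conditioned medium. It has close relatives that may share its reads. Nearest to Parp9 were Iqgap2 (0.00909), Chek1, a checkpoint kinase (0.0150), and 4930486L24Rik (0.0159). Nearest to Dtx3l were Zfp711 (0.0117), Fbxl2 (0.0237) and Spout1 (0.0239), all low, at 4.32 to 14.4 CPM. With 4 libraries such nearness is a description of these values alone.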

How the data were processed

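The authors deposited 1 table of raw read counts per Entrez gene, 1 column per library. Tools listed in the submitters' processing notes were STAR 2.5.2b, Subread 1.4.6-p1 and featureCounts, with mm10 as build. No source used here gives their settings, the annotation or the treatment of reads shared by genes, and the kit named in the labels does not mark strand. Symbols and coordinates came from RefSeq for GRCm38.p6, the build of mm10 (25275 of 27179 rows matched), exonic lengths and overlaps from GENCODE M21, and promoter sequences from the RefSeq table of GRCm38.p6.

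The count test was run in R 4.3.3 with edgeR 4.0.16 (filterByExpr at a minimum count of 10 and a total of 15, TMM factors of 0.987 to 1.01, quasi-likelihood test, Benjamini-Hochberg adjustment over 13897 genes, called under 0.05, 2 residual degrees of freedom). SE was taken as the size of the log2 fold change divided by the root of F, and 95% intervals use the moderated degrees of freedom. CPM floors cover counting error only. No source used here says that the replicates were separate cultures, so p-values measure only the spread between these libraries, which may be technical.

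The members and the 7 gene lists were chosen with earlier results of these data known. Text names the members, all PARP and Deltex genes, up to 4 called genes of each other list with the largest change (or the smallest p), the 2 nearest genes on each side of a member and the 3 nearest in pattern. In the interferon list 1 gene is not reported here by name. Motifs were chosen after the data were seen. The 13 alternatives included DESeq2 1.42.0 and limma 3.58.1 (voom). The procedure was also run on simulated counts drawn with the same spread in both groups. The control and conditioned medium pairs differed in spread, so that run does not show how calls fare here.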

Additional observations from a re-analysis of the deposited data

How the results depend on the processing

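Across all genes edgeR called 2330, DESeq2 904, and fits that left out 1 library 569 to 3107. Members called lower numbered 5, against 2 in DESeq2. They numbered 4 with each other scaling, with each other count filter and in limma-voom, where Parp1 lost its call. Members called higher were 0 in every fit run. A lone library left in a group was assumed to vary like the other group. Because the control pair varied more than the conditioned medium pair, calls in these fits also depend on which group lost a library. Without conditioned medium replicate 1 or 2, 808 and 569 genes were called. Scaling changed no direction among the members, and the median of all genes moved by at most 0.01 on the log2 scale. Calls in the PARP family, 4 lower and 1 higher, were 2 and 0 in DESeq2, 0 higher with no count filter, and 2 to 5 lower and 0 to 3 higher with 1 library left out. Those of the Deltex family, 1 and 1, were 0 and 1 in DESeq2, 0 lower without conditioned medium replicate 2 and 3 higher without control replicate 2. Repair genes called lower, 1, were 3 without control replicate 2 and 0 in DESeq2, with 1 higher without either control library, and 1 ADP-ribose hydrolase or reader was called higher without control replicate 1. Falls in the interferon route, 9, were 5 in DESeq2 and 3 to 10 with 1 library left out, and rises in the aryl hydrocarbon receptor list, 1, were 2 with the replicate block and 0 without conditioned medium replicate 2.

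The replicate number as a block gave 2671 calls and 5 members lower, Parp14 at an adjusted p of 3.21e-20 and Parp1 at 0.038. The labels do not say that a number marks a shared culture or day, and deviations of same-numbered libraries correlated at -0.0425 over 10662 genes, so the numbers were not taken to pair the samples. Lengths from RefSeq-paired transcripts, chosen after seeing the data, raised Parp11 from 1.57 to 2.95 CPM per kb in control, and it was lowest with either length.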

Other observations

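Outside chromosome 16, 7 of the 16 genes nearest to a member, 2 on each side, had enough counts to be tested. The other 9 were too low, among them 3 of the 4 around Parp11. Ccnd2, which encodes a cyclin of the early cell cycle and lies 294642 bases from Parp11, fell from 193.3 and 190.6 to 151.2 and 158.2 CPM (log2 fold change -0.31 ± 0.05; edgeR adjusted p = 7.35e-05), whereas Parp11 was not called. The gene 4930599N23Rik lies 124 bases from the start of Parp12, on the other strand, and had 8.60 and 9.31 CPM in control and 9.16 and 9.26 CPM in conditioned medium (log2 fold change 0.04, interval -0.24 to 0.32), while Parp12 fell. Kdm7a, a histone demethylase gene on the same side, was at -0.03 ± 0.05. Beside Parp1, Itpkb and Lin9 were at -0.14 ± 0.06 and -0.18 ± 0.08, close to the -0.16 of Parp1, and were not called (edgeR adjusted p = 0.0997 and 0.123).

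Beside Parp10, Plec, which encodes a cytoskeletal linker, was at 0.12 ± 0.04 (edgeR adjusted p = 0.0583; 1.95e-04 to 0.525 over the alternatives, and called in 7 of 13 of them, those without control replicate 1 or 2 and 5 that changed the scaling, filter or model). Grina was called at 0.16 ± 0.05 (edgeR adjusted p = 0.0391) but not without control replicate 1 (0.08, adjusted p = 0.262) or conditioned medium replicates 1 and 2 (0.314 and 0.248), with no count filter (0.0742) or in DESeq2 (0.224), the lowest alternative being 1.22e-05. In the aryl hydrocarbon receptor list, which Tiparp belongs to, 1 of 7 genes rose and 0 fell, near the 8.53% and 8.23% of all genes tested. This was Nqo1, at 0.45 ± 0.09 (edgeR adjusted p = 8.12e-04), which lost its call without conditioned medium replicate 2 (0.37, adjusted p = 0.11, the lowest alternative being 4.07e-11). At an unadjusted p under 0.05, edgeR had 2 of these higher and 0 lower, and DESeq2 1 and 0.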
